A study of Mus musculus with 17 samples.

Results

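The E2F transcription factors and the pocket proteins that restrain them were followed as 10 genes, E2f1 to E2f8, Rb1 and Rbl1, in intestinal stem cells sorted from irradiated and non-irradiated mice. The genes were taken by name, as every probe whose gene name on the array equals a member. This gave 13 probes, of which 1 probe a gene was tested, so the 10 members stand among 27771 gene names tested. RNA was read from 17 Agilent mouse arrays of 1 colour, in groups of 4 (12 Gy, LGR5hi), 4 (0 Gy, LGR5hi), 4 (12 Gy, LGR5lo) and 5 (0 Gy, LGR5lo). All mice carried the LGR5-GFPki allele, a green fluorescent protein knocked into Lgr5, and cells were sorted by its brightness 3 hours after gamma-irradiation or with none. Both sexes were present in each group. The sorts are thus defined by reporter brightness. It is not given in the sources used here whether the animals were pooled or whether each array holds a different animal, so p-values measure the spread between these arrays.

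E2F proteins bind DNA as dimers with a DP partner (Tfdp1 or Tfdp2), or, for the atypical E2f7 and E2f8, without one. E2f1, E2f2 and E2f3 are the activators that switch on genes of DNA replication as cells leave G1. E2f4, E2f5 and E2f6 are mostly repressors, the first pair through the pocket proteins of the DREAM complex and E2f6 through polycomb proteins. E2f7 and E2f8 repress E2F targets later in the cycle. The pocket proteins, the retinoblastoma protein of Rb1, p107 of Rbl1 and p130 of Rbl2, hold E2Fs in check until cyclin-dependent kinases phosphorylate them. In the crypt the LGR5hi cells are cycling stem cells, and DNA damage halts their cycle largely through p53 and its target Cdkn1a, the gene of the kinase inhibitor p21.

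All 13 member probes were well above background on every one of the 16 arrays with spot flags. The arrays' 75th percentile of signal lay between 286 and 627 intensity units. Slides were numbered here from the names of the deposited scans. Slides 1 and 2 held 2 arrays of each group, and slide 3 held only non-irradiated LGR5lo replicate 5. On 15 arrays the share of spots that exceeded background clearly was 58.9% to 73.9%. It was 95.6% on non-irradiated LGR5lo replicate 2, the outlying array below, whose spike-in slope was 0.791. Non-irradiated LGR5lo replicate 4 had a spike-in slope of 0, and the other 15 arrays had 0.946 to 1.005. The results were also computed without replicate 2 and without both. The sorts matched their labels, since all 8 LGR5 stem cell markers tested were higher in LGR5hi than in LGR5lo cells in both arms. Of all gene names 2.21% were called higher there after 12 Gy and 4.62% without irradiation. The stem cell markers moved with irradiation too: 4 of the 8 were called lower after 12 Gy in each sort (medians -0.68 in both). Of all gene names 7.3% were called lower in LGR5hi and 3.02% in LGR5lo cells. Lgr5 itself averaged 2.71 ± 0.33 in irradiated LGR5hi cells and 4.23 ± 0.32 in non-irradiated LGR5hi cells (SD, n = 4 each). In LGR5lo cells it averaged -0.18 ± 0.47 with irradiation (n = 4) and 1.09 ± 0.51 without (n = 5). The part of these markers in the irradiation results was not tested. Values here and below are log2 signals minus the array's 75th percentile. They compare 1 probe between groups and do not rank genes against each other. The p53 response was present in both irradiated sorts: 17 of 18 p53 core targets were called higher in each. Of all gene names 6.18% were called higher in LGR5hi and 4.48% in LGR5lo cells. Cdkn1a was higher by 4.91 ± 0.31 in LGR5hi cells and by 2.90 ± 0.30 in LGR5lo cells (log2 difference ± SE).

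**Figure D1:**
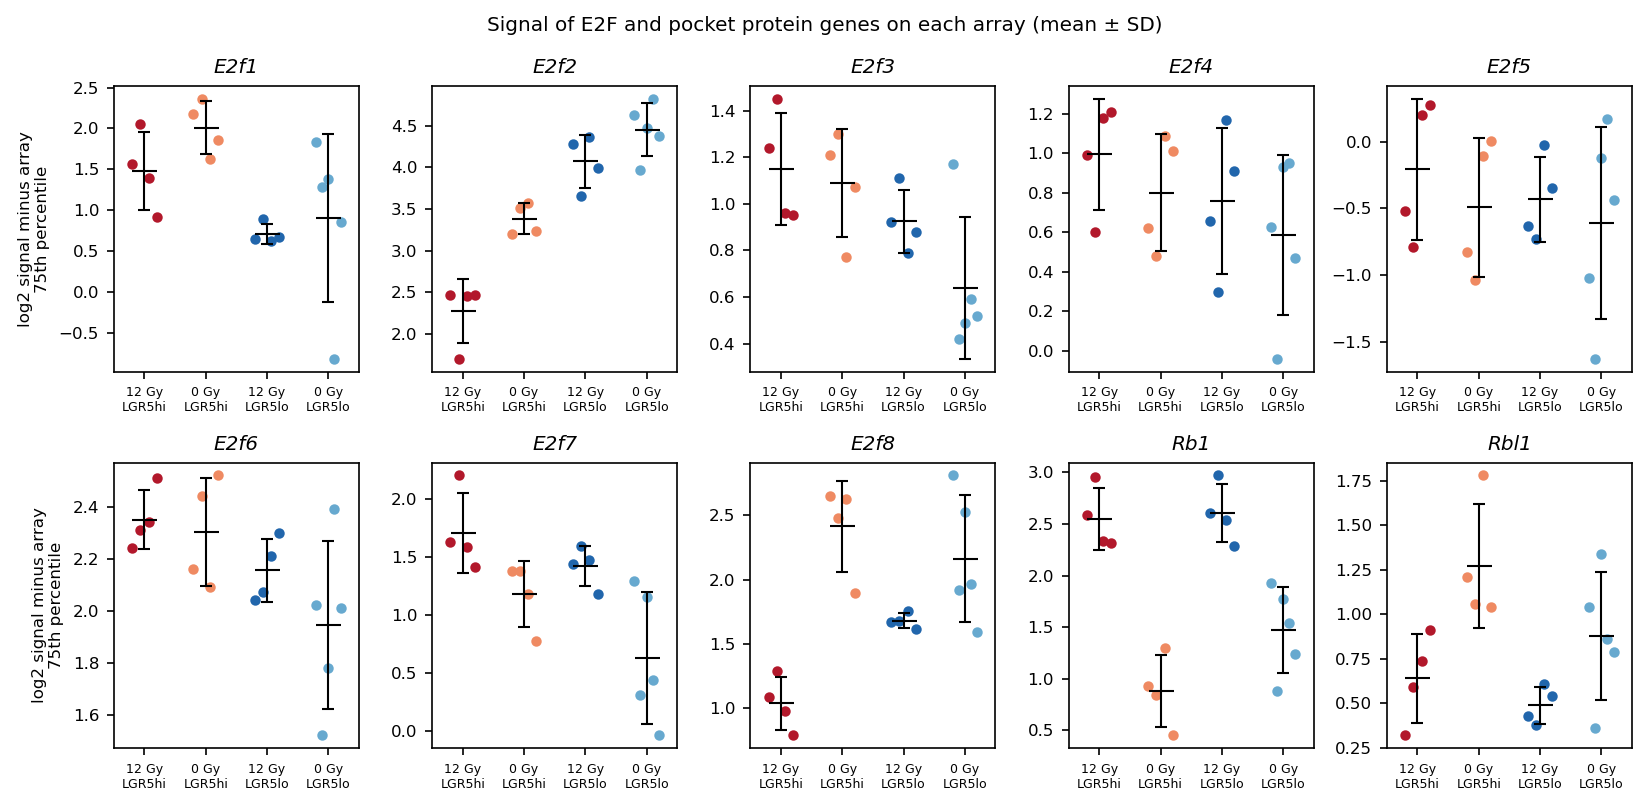
Normalized log2 signal of the tested probe of each gene on every array, with the mean and SD of each group. Rb1 was higher in both irradiated groups than in their non-irradiated groups, and E2f2 and E2f8 were lowest in irradiated LGR5hi cells.

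In LGR5hi cells 3 of the 10 genes changed after irradiation: Rb1 rose, and E2f8 and E2f2 fell. A change here is an adjusted p under 0.05 in limma, with Benjamini-Hochberg adjustment over all 27771 gene names. Of all gene names, 13.5% were called in this comparison, 6.18% higher and 7.3% lower. In LGR5lo cells the only member called was Rb1, again higher, where 7.49% of all gene names were called, 4.48% higher and 3.02% lower. The median difference of the 10 genes was 0.055 in LGR5hi and 0.17 in LGR5lo cells, against -0.021 and -0.13 over all gene names. Without the outlying array, 4 members were called in LGR5hi and 1 in LGR5lo cells, where 18.7% and 9.14% of all gene names were. Centring arrays on their median in place of the 75th percentile moved the median of all gene names in LGR5lo cells to 0.40. LGR5lo values that change sign with it are therefore also given relative to that median. Both scalings subtract a constant per array, so this relative value is the same under both by construction, apart from rounding. It does not show which sign holds.

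Rb1, the gene of the retinoblastoma protein, had the smallest p of the 10 genes in both sorts. Its signal was 2.59, 2.96, 2.33 and 2.32 in the irradiated LGR5hi arrays, against 0.93, 0.84, 1.30 and 0.45 in the non-irradiated LGR5hi arrays. The lowest irradiated array lay 1.01 above the highest non-irradiated one. The log2 difference was 1.67 ± 0.25, a 3.17-fold rise (95% interval 2.21 to 4.56, adjusted p = 0.00021 in limma). Within slide 1 it was 1.89 and within slide 2 it was 1.44, and a slide term in the fit left it at 1.67. On slide 1 alone, with 2 arrays a group, the call was not made (adjusted p = 0.11 in limma). In bulk RNA of this kind, fewer cells of a type and less RNA per cell cannot be told apart.

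The rise of Rb1 was also seen in LGR5lo cells. The values were 2.61, 2.97, 2.54 and 2.29 in irradiated LGR5lo cells, against 1.93, 0.88, 1.77, 1.54 and 1.24 in non-irradiated LGR5lo cells. These groups did not overlap either, with a gap of 0.36. The difference was 1.13 ± 0.23, or 2.19-fold (95% interval 1.56 to 3.09, adjusted p = 0.0067 in limma). Leaving out the outlying array gave 0.99 ± 0.22 (adjusted p = 0.009). The slides gave 1.39 and 0.76, neither called on its own (adjusted p = 0.32 and 0.31). The Rb1 probe, printed on 10 spots of each array, lies at mm9 chr14:73595408-73595467 on the minus strand and is shown because the result rests on this 1 oligo.
Rb1 probe: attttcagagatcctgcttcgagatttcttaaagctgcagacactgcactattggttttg

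Rbl1 encodes p107, the pocket protein made mostly in cycling cells. It was 0.32, 0.59, 0.74 and 0.91 in irradiated LGR5hi cells, against 1.21, 1.06, 1.78 and 1.04 in non-irradiated LGR5hi cells. All irradiated values lay below all non-irradiated ones, by 0.13 at the closest. The difference of -0.63 ± 0.21 missed the threshold (adjusted p = 0.061 in limma). It passed under 9 of 33 alternatives, among them a slide term in the fit (adjusted p = 0.035). Leaving out the outlying array, which is outside this comparison and changes only the shared variance, was another (0.024). In LGR5lo cells Rbl1 differed by -0.39 ± 0.20 (adjusted p = 0.24) and by 0.14 under median centring. Relative to all gene names it was -0.26 with the 75th percentile and -0.25 with the array median, the same by construction apart from rounding. A second Rbl1 probe, designed to another transcript record and 28618 bases away in mm9, gave -0.11 ± 0.42 in LGR5hi and -0.56 ± 0.39 in LGR5lo cells. On this probe the outlying array was -0.08, and the other non-irradiated LGR5lo arrays were -2.57 to -1.43. The irradiated LGR5lo arrays were -2.50 to -1.61. The mean of both probes differed by -0.37 in LGR5hi cells. The remaining pocket protein gene, Rbl2, was named with the partners and fell in LGR5hi cells by 0.66 ± 0.18 (adjusted p = 0.022), while in LGR5lo cells it was -0.38 ± 0.17 (adjusted p = 0.20).

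Among the activators, E2f2 changed in LGR5hi cells and neither E2f1 nor E2f3 was called. E2f2 gave 2.47, 1.70, 2.45 and 2.47 in irradiated LGR5hi cells, against 3.20, 3.51, 3.57 and 3.24 in non-irradiated LGR5hi cells. The irradiated values were all lower, by at least 0.73, and 3 of them nearly coincided while replicate 2 was lower still. The difference was -1.11 ± 0.22, so the irradiated level was 0.46 of the non-irradiated one (95% interval 0.33 to 0.64, adjusted p = 0.0028 in limma). Slide 1 gave -1.27 and slide 2 gave -0.95 (adjusted p = 0.26 and 0.074). Centring on the array median left the difference at -1.13 but not the call (adjusted p = 0.23). In LGR5lo cells the difference was -0.38 ± 0.21, which was not called (adjusted p = 0.27), and its interval ran from -0.83 to 0.07. Under median centring it was 0.15, so its sign depended on the scaling. Relative to all gene names it was -0.24, by construction the same under both scalings.
E2f2 probe, mm9 chr4:135750562-135750621, plus strand: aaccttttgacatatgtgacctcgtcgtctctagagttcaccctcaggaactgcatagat

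E2f1, the activator also known for inducing death genes, was 1.56, 2.06, 1.39 and 0.91 in irradiated LGR5hi cells, against 2.18, 2.36, 1.63 and 1.86 in non-irradiated LGR5hi cells. These groups overlapped, and the difference was -0.53 ± 0.42 (95% interval -1.43 to 0.37, adjusted p = 0.55). That error uses the variance shared by all groups. The SD was 1.03 in non-irradiated LGR5lo cells, against 0.48 in irradiated and 0.32 in non-irradiated LGR5hi cells. Over the alternatives the lowest adjusted p in limma was 0.16. In LGR5lo cells it was 0.65, 0.89, 0.62 and 0.67 after irradiation, against 1.83, 1.28, 1.38, -0.82 and 0.86 without. The irradiated arrays lay within the range of the non-irradiated ones. The difference was -0.20 ± 0.40 (adjusted p = 0.77), -0.63 without non-irradiated replicate 4 (adjusted p = 0.13) and 0.34 under median centring. Relative to all gene names it was -0.06, by construction the same under both scalings. E2f3 differed by 0.06 ± 0.18 in LGR5hi and 0.29 ± 0.17 in LGR5lo cells, and its second probe by 0.28 ± 0.24 and 0.30 ± 0.23, none of which was called.

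None of the repressors was called. E2f4, the main E2F of resting cells, differed by 0.20 ± 0.24 in LGR5hi and 0.17 ± 0.23 in LGR5lo cells. E2f5 differed by 0.29 ± 0.37 and 0.17 ± 0.36. E2f6, the polycomb-linked member, differed by 0.05 ± 0.17 and 0.21 ± 0.16. Its 95% interval in LGR5hi cells, -0.32 to 0.41, was the narrowest of the 10. The arrays of E2f5 fell apart by slide rather than by group: over all groups the 8 arrays of slide 1 ran from -1.63 to -0.52 and the 8 of slide 2 from -0.35 to 0.28. For E2f4 the slides ran from -0.04 to 0.99 and from 0.91 to 1.21. With a slide term the irradiation differences in LGR5hi cells stayed at 0.20 for E2f4 and 0.29 for E2f5, since each group there lies equally on both slides.

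Of the atypical pair, E2f8 fell in LGR5hi cells and E2f7 was not called. E2f8 was 1.09, 1.29, 0.98 and 0.79 in irradiated LGR5hi cells, against 2.65, 2.48, 2.63 and 1.90 in non-irradiated LGR5hi cells. The groups were 0.61 apart at the closest. The difference was -1.38 ± 0.24, a level 0.38 of the non-irradiated one (95% interval 0.27 to 0.55, adjusted p = 0.00088 in limma). Both slides gave -1.38, with adjusted p of 0.15 and 0.06 for 2 arrays a group, and with the array median the difference was -1.40 (adjusted p = 0.085). In LGR5lo cells E2f8 was 1.67, 1.68, 1.76 and 1.62 after irradiation, against 2.81, 1.92, 2.53, 1.97 and 1.59 without. These overlapped, and the difference of -0.48 ± 0.23 was not called (adjusted p = 0.21). It was -0.54 without the outlying array (adjusted p = 0.18) and 0.05 under median centring. Relative to all gene names it was -0.35, by construction the same under both scalings.
E2f8 probe, mm9 chr7:56121860-56121919, minus strand: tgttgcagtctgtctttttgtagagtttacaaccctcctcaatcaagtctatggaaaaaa

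E2f7 is known from human cells as a p53-responsive gene. It was 1.63, 2.20, 1.58 and 1.41 in irradiated LGR5hi cells, against 1.38, 1.38, 1.18 and 0.77 in non-irradiated LGR5hi cells. The groups were separate by only 0.02, and the difference of 0.53 ± 0.27 was not called (adjusted p = 0.27). In LGR5lo cells E2f7 was 1.44, 1.59, 1.47 and 1.18 after irradiation, against 1.29, 0.31, 1.15, 0.44 and -0.04 without. Its difference of 0.79 ± 0.26 missed the threshold (adjusted p = 0.078) and passed without non-irradiated LGR5lo replicate 1 (0.028) or 3 (0.043). A second, dimmer E2f7 probe 5076 bases upstream on the plus strand of mm9 chromosome 10 showed none of this. It differed by 0.02 ± 0.16 in LGR5hi and -0.14 ± 0.15 in LGR5lo cells, and the mean of both probes by 0.33 in LGR5lo cells. The oligos are printed because they disagree, and the cause was not tested.
E2f7 brighter probe, chr10:110224331-110224390: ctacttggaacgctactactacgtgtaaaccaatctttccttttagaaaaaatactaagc
E2f7 dimmer probe, chr10:110219255-110219314: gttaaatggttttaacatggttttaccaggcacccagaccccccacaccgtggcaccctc

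**Figure D2:**
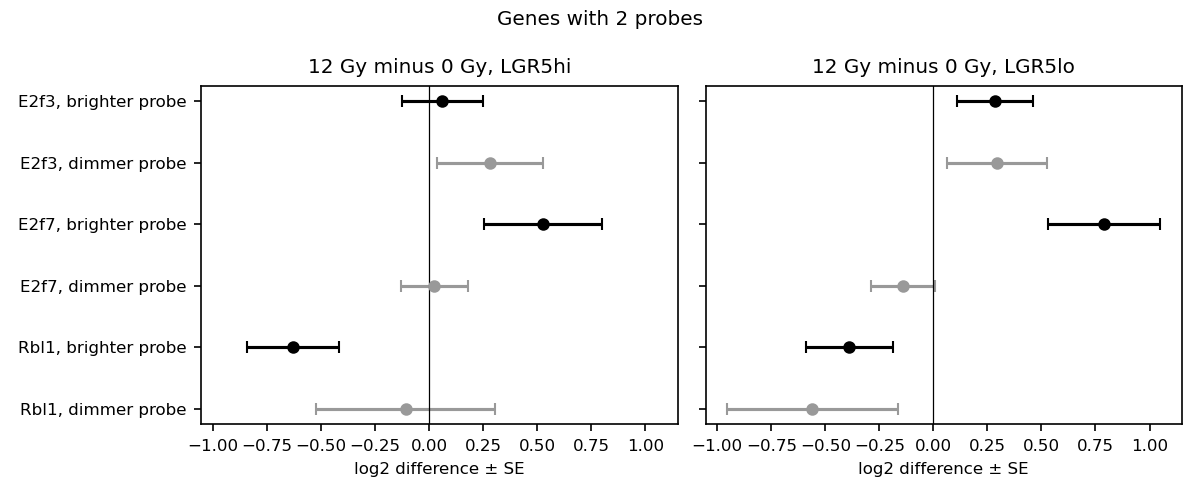
Log2 difference ± SE after irradiation for both probes of E2f3, E2f7 and Rbl1, with LGR5hi cells left and LGR5lo cells right. The brighter E2f7 probe gave 0.53 and 0.79 where the dimmer gave 0.02 and -0.14, and the E2f3 probes gave 0.06 and 0.28 in LGR5hi cells.

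Whether the sorts answered irradiation differently was tested as the difference of the effects, LGR5hi minus LGR5lo. No member was called, and 0.0396% of all gene names were (0.036% higher, 0.0036% lower). The smallest unadjusted p belonged to E2f8, at -0.90 ± 0.33 (adjusted p = 0.64 in limma), and E2f2, at -0.73 ± 0.31 (adjusted p = 0.70). A block for the replicate number within each arm pairs the sorts. With it E2f8 was -0.75 ± 0.22 (adjusted p = 0.36) and E2f2 -0.71 ± 0.27 (adjusted p = 0.47). At an unadjusted p under 0.05, 2 of 10 members and 1890 of 27771 gene names passed. For Rb1 the difference of effects was 0.53 ± 0.34 (adjusted p = 0.71), and -0.020 under median centring, where the median of all gene names was -0.49. Relative to the median of all gene names it was 0.47, by construction the same under both scalings. The calls of E2f2 and E2f8 in LGR5hi cells alone are therefore not shown to set that sort apart.

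**Figure D3:**
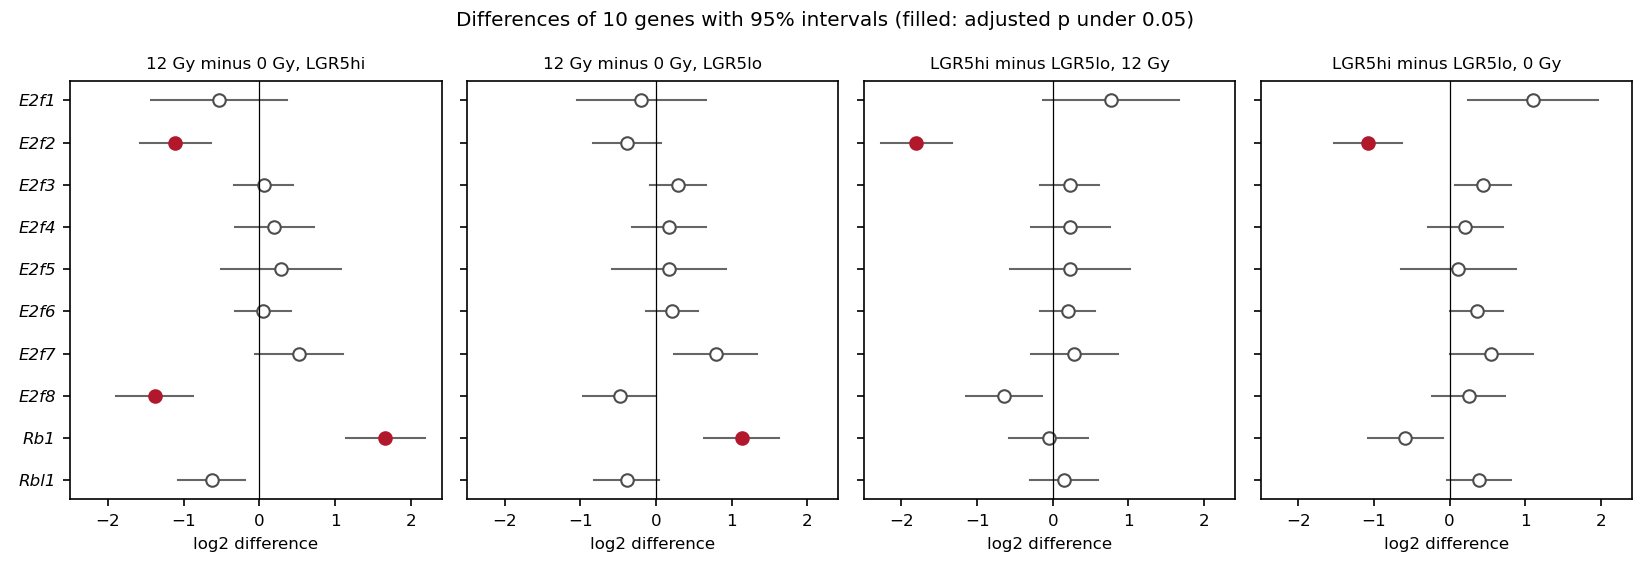
Log2 differences of the 10 genes with 95% intervals in 4 comparisons, filled where the adjusted p was under 0.05. Rb1 was called for irradiation in both sorts, E2f2 and E2f8 in LGR5hi cells, and E2f2 between the sorts in both arms.

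E2f2 was called between the sorts in both arms, lower in LGR5hi than in LGR5lo cells. After irradiation the LGR5hi values given above lay below 4.28, 3.66, 4.36 and 3.99 in LGR5lo cells, by at least 1.19. The difference was -1.80 ± 0.22, so LGR5lo cells had 3.49 times the level of LGR5hi cells (adjusted p = 8.1e-05 in limma). With the block that pairs the sorts it was -1.80 ± 0.19 (adjusted p = 0.0014). In the fit without a block E2f2 was the 1 member called in this comparison, where 6.31% of all gene names were (2.21% higher and 4.1% lower in LGR5hi cells). Without irradiation the LGR5hi values lay below 4.63, 3.97, 4.47, 4.82 and 4.37 in LGR5lo cells, by at least 0.41. The difference was -1.07 ± 0.21, or 2.10-fold higher in LGR5lo cells (adjusted p = 0.0039). It was again the 1 member called, against 9.55% of all gene names (4.62% higher and 4.93% lower). With the block that pairs the sorts E2f2 differed by -1.09 ± 0.19 (adjusted p = 0.012). Median centring gave -0.60 with no call (adjusted p = 0.39), where the median of all gene names was 0.39. Relative to all gene names the E2f2 difference was -0.99, by construction the same under both scalings. With the outlying array left out E2f2 differed by -1.19 ± 0.20, and Rb1 was then called as well (-0.73, adjusted p = 0.043). In that fit 10.3% of all gene names were called. Same-numbered arrays of an arm were lower for E2f2 in LGR5hi than in LGR5lo cells in 8 of 8 pairs.

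Enteroendocrine, goblet and tuft markers moved the same way as E2f2. All 6 enteroendocrine and all 4 tested goblet markers were lower in LGR5hi than in LGR5lo cells in both arms. So were 3 of 4 tuft markers after irradiation and 4 of 4 without. Of all gene names 4.1% and 4.93% were lower. Of 5 tested Paneth markers 0 were called after irradiation and 1 was lower without. Of 4 tested stromal and endothelial markers 1 was lower in each arm. Of 8 leukocyte markers 0 were called after irradiation and 1 was lower without, and of 2 tested erythrocyte markers 1 was lower after and 0 without. Of 7 enterocyte markers 0 were called, with medians of -0.94 after irradiation and -0.69 without. The summed enteroendocrine level, as log2, was 4.53 to 4.90 in irradiated LGR5hi cells and 8.77 to 9.48 in irradiated LGR5lo cells. Without irradiation it was 4.2 to 5.29 in LGR5hi cells and 8.24 to 8.73 in LGR5lo cells. Every enteroendocrine marker was above background on every array with flags. The part of these markers in the E2f2 result was not tested.

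With no replicate block and all arrays in the fit, no other member was called between the sorts. In the 8 same-numbered pairs E2f1, E2f3, E2f6 and E2f7 were higher in the LGR5hi array each time, by as little as 0.04 for E2f3 and 0.03 for E2f7. E2f4 and Rbl1 were higher in 7, Rb1 was lower in 7, and E2f5 was higher and E2f8 lower in 6. The share of all gene names with 1 sign in every pair was not computed. These counts and that of E2f2 therefore only describe the arrays. E2f1 was higher in LGR5hi than in LGR5lo cells by 0.77 ± 0.42 after irradiation (adjusted p = 0.38) and by 1.10 ± 0.40 without (adjusted p = 0.099). The non-irradiated difference was 0.67 without non-irradiated LGR5lo replicate 4. E2f8 was lower in LGR5hi cells after irradiation by 0.34 at the closest arrays, with a difference of -0.64 ± 0.24 (adjusted p = 0.15). Since same-numbered LGR5hi and LGR5lo arrays deviated together, the fit with the number as a block within each arm applies here, and it called E2f8 (-0.64 ± 0.15, adjusted p = 0.039). The share of all gene names called by that fit after irradiation is not reported here. Without irradiation E2f8 differed by 0.25 ± 0.23. Rb1 was -0.59 ± 0.23 in the non-irradiated comparison (adjusted p = 0.13) and -0.05 ± 0.25 after irradiation.

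**Figure D4:**
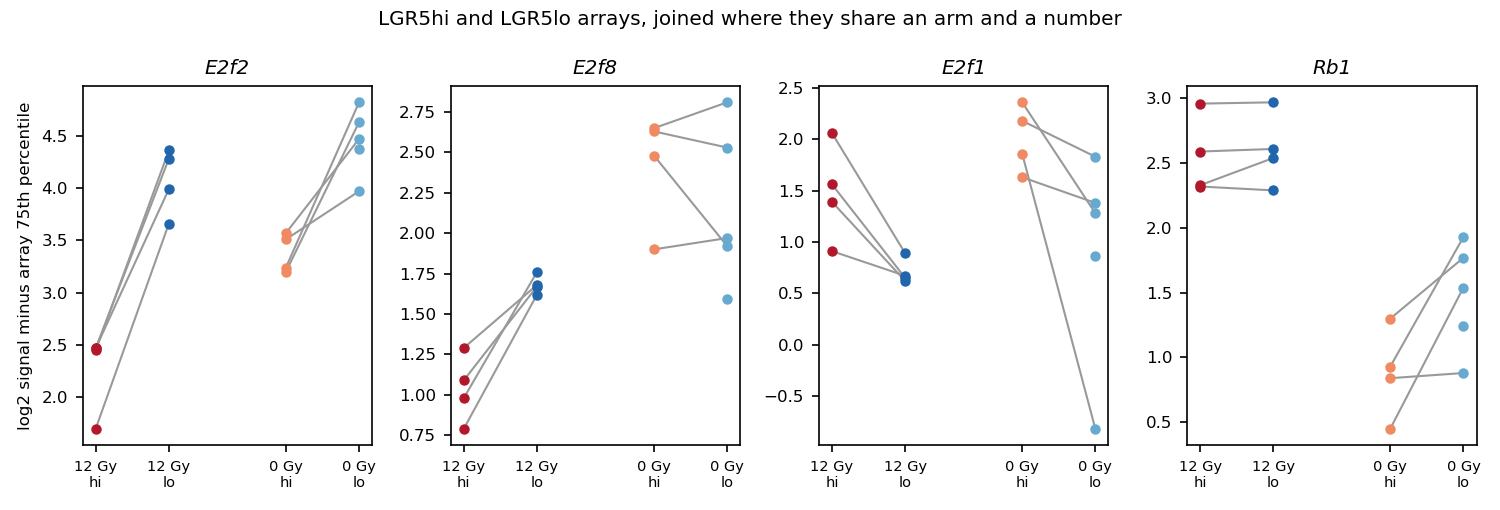
Normalized log2 signal of E2f2, E2f8, E2f1 and Rb1 in LGR5hi and LGR5lo arrays, joined where they share an arm and a replicate number. E2f2 was lower and E2f1 higher in the LGR5hi array of all 8 joined pairs.

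Several partners of the family fell after irradiation. Of 10 genes of DP partners, DREAM subunits and linked factors, 4 fell and 0 rose in LGR5hi cells. Of all gene names 7.3% fell and 6.18% rose there. In LGR5lo cells 2 fell and 1 rose, where 3.02% of all gene names fell and 4.48% rose. Their medians were -0.46 and -0.19, beside -0.021 and -0.13 over all gene names. Without the outlying array 5 of the 10 fell in LGR5hi cells, where 10.2% of all gene names fell and 8.52% rose. Tfdp2, a DP partner, averaged 0.25 ± 0.35 in irradiated LGR5hi cells and 1.60 ± 0.11 in non-irradiated LGR5hi cells (SD, n = 4 each). It fell by 1.34 ± 0.21 there (adjusted p = 0.00042) and by 0.97 ± 0.20 in LGR5lo cells (adjusted p = 0.0075). Tfdp1, the other DP partner, was 0.40 ± 0.17 in LGR5hi cells (adjusted p = 0.15) and rose by 0.64 ± 0.16 in LGR5lo cells (adjusted p = 0.022). Foxm1, a driver of mitotic genes, fell by 1.18 ± 0.18 and 0.64 ± 0.17. Lin54, a DNA-binding DREAM subunit, fell in LGR5hi cells by 0.61 ± 0.17. The calls of Lin54 and Rbl2 in LGR5hi cells and of Foxm1 and Tfdp1 in LGR5lo cells were each lost when some single array was left out, with adjusted p up to 0.086, 0.078, 0.102 and 0.095.

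The kinases and inhibitors that set the state of the pocket proteins moved unevenly. Over all gene names 7.3% fell and 6.18% rose in LGR5hi cells, and 3.02% fell and 4.48% rose in LGR5lo cells. Of 12 cyclin, kinase and related genes, 3 fell and 0 rose in LGR5hi cells: Ccna2 (cyclin A2, -1.68 ± 0.23), Cdk1 (-1.14 ± 0.23) and Cdk2 (-0.72 ± 0.17). In LGR5lo cells Ccna2 fell (-0.84 ± 0.22) and Ccnd1, cyclin D1, rose (2.09 ± 0.59, adjusted p = 0.041). Without non-irradiated LGR5lo replicate 4, Ccnd1 differed by 1.37 ± 0.22 (adjusted p = 0.0012), and with some other single arrays left out its call was lost (adjusted p up to 0.105). In LGR5hi cells Ccnd1 was not called, though its groups did not overlap. It averaged 6.11 ± 0.48 in irradiated and 4.81 ± 0.25 in non-irradiated LGR5hi cells (SD, n = 4 each). The Ccna2 call in LGR5lo cells was also lost with some single arrays left out (adjusted p up to 0.093). Without the outlying array 4 of the 12 fell in LGR5hi cells, and 3 fell and 1 rose in LGR5lo cells. In that fit 10.2% of all gene names fell in LGR5hi cells, and 4.22% fell and 4.93% rose in LGR5lo cells. Of 7 CDK inhibitors, Cdkn1a rose in both sorts. Cdkn1b (p27, -1.48 ± 0.21) and Cdkn2d (p19, -1.08 ± 0.28) fell in LGR5hi cells, the Cdkn2d call being lost without non-irradiated LGR5hi replicate 1 or 3 (adjusted p = 0.058 and 0.051).

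**Figure D5:**
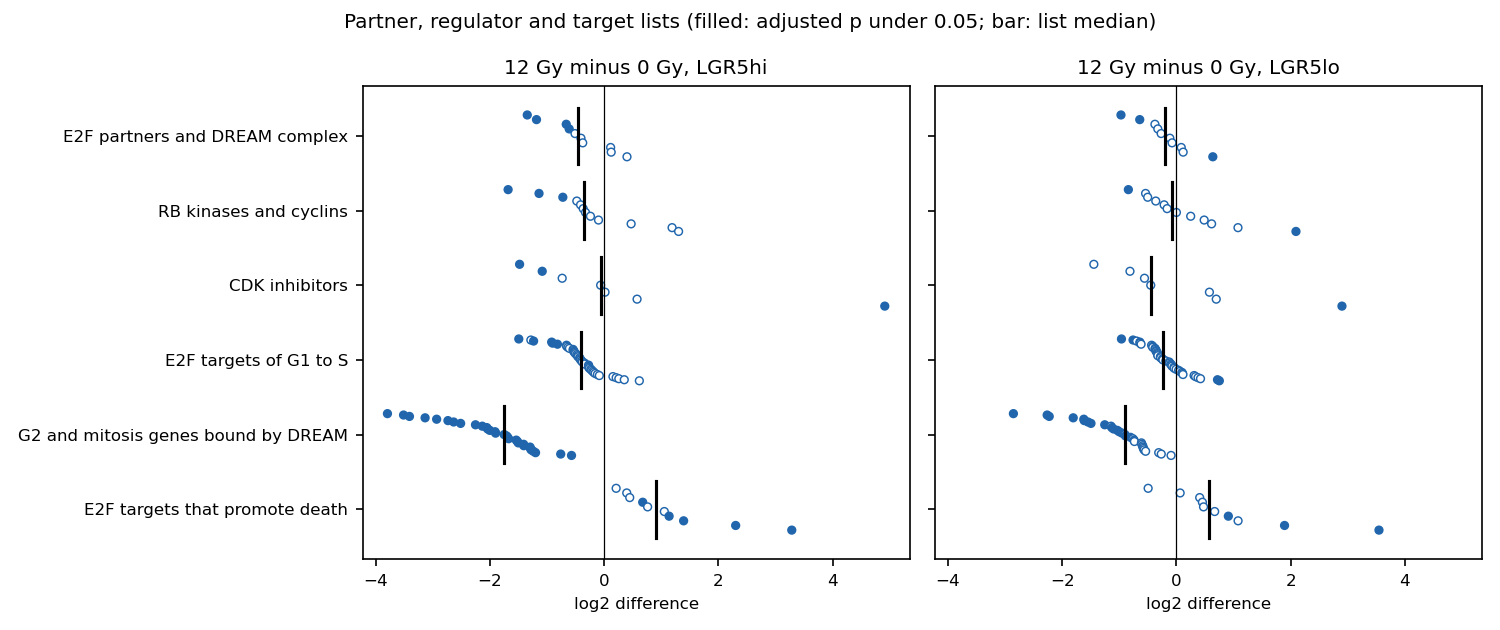
Log2 difference after irradiation of each gene of 6 lists, LGR5hi left and LGR5lo right, filled where called, with a bar at the list median. In LGR5hi cells all 31 G2 and mitosis genes were called lower, with a median of -1.75, while 6 of 41 G1 to S targets were.

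Most target genes of the start of S phase were not called. Of 41 G1 to S targets of the activators, 6 fell and 0 rose in LGR5hi cells, where 7.3% of all gene names fell and 6.18% rose. In LGR5lo cells 3 fell and 2 rose, where 3.02% of all gene names fell and 4.48% rose. The medians of the 41 were -0.41 and -0.24, beside -0.021 and -0.13 over all gene names. Among those that fell in LGR5hi cells were Tk1 (thymidine kinase, -1.49 ± 0.26), Dscc1 (-0.92 ± 0.19) and Gmnn (geminin, -0.90 ± 0.20). In LGR5lo cells Dscc1 fell by 0.76 ± 0.18 and Mcm6, a subunit of the replicative helicase, by 0.64 ± 0.17. Both LGR5lo calls were lost with some single arrays left out, with adjusted p up to 0.056 for Dscc1 and 0.111 for Mcm6. Without the outlying array, 9 fell in LGR5hi cells and 2 fell and 1 rose in LGR5lo cells. In that fit 10.2% of all gene names fell in LGR5hi cells, and 4.22% fell and 4.93% rose in LGR5lo cells.

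Genes of G2 and mitosis, which DREAM also binds, were called lower in all cases in LGR5hi cells and in part in LGR5lo cells. Over all gene names 7.3% and 3.02% were called lower in these sorts. For the difference of effects, LGR5hi minus LGR5lo, 0 of the 31 genes were called, and 0.0396% of all gene names were. Their median there was -0.895, beside 0.060 over all gene names. The count was also 0 for the partners, the kinase genes, the G1 to S targets and the CDK inhibitors with Cdkn1a. The sorts are therefore not shown to differ in these responses. In LGR5hi cells 31 of 31 fell (median -1.75), and those with the smallest p were Cdkn3 (-3.41 ± 0.26), Nusap1 (-2.93 ± 0.24), Cdc25b (-2.73 ± 0.24) and Cenpf (-3.79 ± 0.35). In LGR5lo cells 17 of 31 fell (median -0.90), among them Cdkn3 (-2.26 ± 0.25), Cenpf (-2.85 ± 0.33), Cdc25c (-2.23 ± 0.33) and Cdc25b (-1.55 ± 0.23). Cenpf averaged -6.25 in irradiated LGR5hi and -5.93 in irradiated LGR5lo cells, and Cdc25c -3.48 in irradiated LGR5lo cells. At such low levels the size of a fall is uncertain, and the background flags of these genes are not reported here. Mki67, the gene of the Ki-67 proliferation antigen, averaged 4.16 ± 0.12 in irradiated and 5.87 ± 0.20 in non-irradiated LGR5hi cells (SD, n = 4 each), a fall of 1.71 ± 0.20. The part of cell cycle position in the falls of E2f2 and E2f8 was not tested.

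Of 10 death-promoting genes known as E2F targets, 5 rose and 0 fell in LGR5hi cells and 3 rose and 0 fell in LGR5lo cells, where 6.18% and 4.48% of all gene names rose. The risers in both sorts were Bbc3 (PUMA, 3.29 ± 0.29 and 3.55 ± 0.28), Pmaip1 (NOXA, 2.30 ± 0.26 and 1.89 ± 0.24) and Apaf1, the apoptosome scaffold (1.39 ± 0.14 and 0.91 ± 0.13). Bid was called in LGR5hi cells (1.14 ± 0.28). Without the outlying array 6 rose in LGR5hi and 4 in LGR5lo cells, where 8.52% and 4.93% of all gene names rose. Several of these are p53 targets as well, and Bbc3 stands in both lists. Trp73, the p53-related gene often named as a target of E2f1, was 0.21 ± 0.24 and 0.07 ± 0.22.

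Between the non-irradiated sorts, 18 of the 41 G1 to S targets were higher in LGR5hi than in LGR5lo cells and 0 were lower. Of all gene names 4.62% were higher there. Without the outlying array 14 of the 41 were higher, where 4.26% of all gene names were. After irradiation 3 of the 41 were higher, where 2.21% of all gene names were, and 7 were without that array, where 4.32% were. The median differences of the 41 were 0.58 without and 0.34 with irradiation, beside -0.083 and 0.047 over all gene names. The kinase gene Cdk6 was higher in LGR5hi cells in both arms (1.08 ± 0.19 after irradiation, 1.49 ± 0.18 without). Cdkn1a was lower in LGR5hi cells without irradiation (-2.43 ± 0.30), and after irradiation its difference was -0.41 ± 0.31 (adjusted p = 0.58). Of the 7 inhibitors, 2 were called lower in LGR5hi cells after irradiation and 3 without, where 4.1% and 4.93% of all gene names were lower. Cdkn1c (p57) was lower in both arms (-2.61 ± 0.26 after irradiation, -3.00 ± 0.25 without), and so was Cdkn2b (p15, -2.73 ± 0.74 and -2.73 ± 0.71). The Cdkn2b calls were lost with some single arrays left out (adjusted p up to 0.139 and 0.097).

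Promoter windows of RefSeq (GRCm38.p6, 250 bases before to 50 after a start) were matched for 7 of the 10 genes, in 9 windows. E2f4, E2f5 and Rb1 were not matched. They were searched on both strands for the E2F-type letters TTTCCCGC, TTTCGCGC, TTTGCCGC and TTTGGCGC, for the CHR letters TTTGAA and for CCAAT. The E2F-type letters were in 4 of the 9 windows and in 2.26% of 32851 windows of the same length. CHR letters were in 3 of 9 (17.9% of all) and CCAAT in 5 of 9 (37.4% of all). A match is a description and not a binding site. The windows below belong to the genes that fell together and to Rbl1 and E2f7, with E2F-type and CHR letters in capitals on either strand. In E2f2 the E2F-type match TTTGGCGC lies 40 to 47 bases after the start. In Rbl1 TTTCGCGC lies 18 to 11 bases before the start, and in E2f7 TTTCCCGC is on the opposite strand, at -198 to -191 relative to it. A second E2f2 window, chr4:136180532-136180831, holds no E2F-type letters and holds TTTGAA at -31 to -26. An E2f3 window holds both, TTTCCCGC on the opposite strand at -11 to -4 and TTTGAA at -23 to -18. The E2f8 window holds TTTGAA on the opposite strand, 20 to 15 bases before the start, and none of the E2F-type letters searched.
E2f2, chr4:136172024-136172323, plus strand: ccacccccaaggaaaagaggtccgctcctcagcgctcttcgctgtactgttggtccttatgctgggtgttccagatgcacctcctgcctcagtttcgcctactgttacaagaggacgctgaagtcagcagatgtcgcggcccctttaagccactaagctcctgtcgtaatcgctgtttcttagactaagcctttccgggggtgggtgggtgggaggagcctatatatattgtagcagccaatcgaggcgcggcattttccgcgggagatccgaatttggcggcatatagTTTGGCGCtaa
E2f8, chr7:48881547-48881846, minus strand: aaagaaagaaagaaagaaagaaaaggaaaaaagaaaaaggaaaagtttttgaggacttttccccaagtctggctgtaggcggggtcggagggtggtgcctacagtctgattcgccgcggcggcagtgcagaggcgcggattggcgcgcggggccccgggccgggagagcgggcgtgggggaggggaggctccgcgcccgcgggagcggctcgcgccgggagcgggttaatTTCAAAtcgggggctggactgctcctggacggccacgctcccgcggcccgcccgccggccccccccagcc
Rbl1, chr2:157204485-157204784, minus strand: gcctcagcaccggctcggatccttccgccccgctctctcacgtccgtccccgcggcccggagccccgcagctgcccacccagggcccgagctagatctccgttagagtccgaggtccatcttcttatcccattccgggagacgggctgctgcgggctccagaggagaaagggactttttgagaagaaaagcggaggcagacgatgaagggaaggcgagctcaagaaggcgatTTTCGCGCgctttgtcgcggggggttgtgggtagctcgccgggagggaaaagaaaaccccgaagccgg
E2f7, chr10:110745189-110745488, plus strand: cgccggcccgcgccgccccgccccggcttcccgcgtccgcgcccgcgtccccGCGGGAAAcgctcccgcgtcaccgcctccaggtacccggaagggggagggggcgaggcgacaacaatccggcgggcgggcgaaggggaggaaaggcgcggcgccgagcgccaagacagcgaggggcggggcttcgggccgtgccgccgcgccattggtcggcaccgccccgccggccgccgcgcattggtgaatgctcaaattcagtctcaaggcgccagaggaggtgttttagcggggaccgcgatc

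The genes whose pattern was most like a member's were found over the 17 arrays by Pearson correlation, given as a description, since the arrays share their arms and sorts. For Rb1 they were Acbd4 (r = 0.975), Chuk, the gene of the kinase IKK-alpha (0.974), and Tulp4 (0.962). For E2f8 they were the connexin gene Gjb1 (0.961), Elmod3 (0.952) and Cdkn1b (0.952). E2f2 was most like Dll4, the gene of a Notch ligand (0.958), Ethe1 (0.952) and Smim6 (0.949), and E2f7 like the thiamine transporter gene Slc19a2 (0.953), Prcp (0.935) and the emerin gene Emd (0.933).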

How the data were processed

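Per the labels, total RNA of sorted cells was labelled with Cy3 and hybridised to Agilent arrays. The deposited scanner files hold intensity after background subtraction, made by the authors with Agilent Feature Extraction 10.7.3.1 (per the submitters' processing notes). The authors' deposited series table holds log2 values. No other unit was used, save that 1 damaged scanner file, of which 15329 of 62976 spots could be read, served only to check values of another kind rebuilt from the log2 table. The rebuilt array, non-irradiated LGR5hi replicate 1, met the readable part within 0.02 log2 for 100% of 13423 probes after removal of a constant, and its level was checked against the file header. It has no spot flags.

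Log2 signals, less the 75th percentile of the array's probes without controls, were fitted with limma 3.58.1 in R 4.3.3, as 4 group means over 17 arrays, with Benjamini-Hochberg adjustment over 27771 gene names. Kept probes were those flagged well above background on 4 or more arrays, and the brightest kept probe of a gene was tested. Errors beside differences are standard errors. The number of arrays limits precision: the median standard error was 0.26 in LGR5hi cells. The script was tested on simulated data. Python 3.11.15, numpy 2.4.6, pandas 2.3.3 and matplotlib 3.10.9 were used otherwise. Same-numbered LGR5hi and LGR5lo arrays of an arm correlated at 0.121 to 0.456 in their deviations from the group means (8 pairs), so numbers were taken to pair the sorts, and irradiated with non-irradiated arrays at -0.0997 to 0.22, so not the arms.

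Named genes are all members, up to 4 called genes of each list with the smallest p in each irradiation comparison, Lgr5, Cdkn1a, Mdm2, Mki67, Rbl2 and the DP genes. Some genes that this rule names are not reported here. Trp73, Cdk6, Mga, Dnmt1, Rbbp8 and any other genes named between the sorts or beyond this rule were chosen after their values were seen. The members and lists were chosen with earlier results of these data known. Alternatives covered background correction, scaling, probe filter, probe choice, series table values, sex, slide, replicate block, variance and each array left out. Leaving arrays out for single list genes, and leaving out non-irradiated LGR5lo replicates 2 and 4 together, were chosen after seeing the data.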

Additional observations from a re-analysis of the deposited data

Results flagged for a closer look

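Of 40 gene and group sets, 2 had 1 array far from the rest, and chance alone gives about 1 in 20. E2f2 in irradiated LGR5hi replicate 2 was 1.70, where the other 3 arrays were 2.45 to 2.47. Without it the irradiation difference in LGR5hi cells was -0.92 (adjusted p = 0.009 in limma) and the difference from LGR5lo cells after 12 Gy was -1.61 (0.00027). E2f3 in non-irradiated LGR5lo replicate 1 was 1.17, against 0.42 to 0.59 in the other 4. Without it E2f3 was called higher in non-irradiated LGR5hi than in LGR5lo cells (0.58, adjusted p = 0.021), and with it was not (0.45, adjusted p = 0.12).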

How the results depend on the processing

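Of the 6 called differences of single members, the call was kept in 184 of 198 alternatives and lost in 14. Those alternatives include leaving out arrays outside the comparison, which cannot move the difference and changes only the shared variance. None of the 6 changed sign. Uncalled ones did: with the array median E2f1, E2f2, E2f8 and Rbl1 were 0.34, 0.15, 0.05 and 0.14 in LGR5lo cells, against -0.20, -0.38, -0.48 and -0.39 with the 75th percentile. Relative to the median of all gene names they were -0.06, -0.24, -0.35 and -0.25 with the array median. By construction these equal the values with the 75th percentile, apart from rounding. Member counts are given first. Against 3 called for irradiation in LGR5hi cells, centring on the array median gave 1, slide 1 alone 0, slide 2 alone 1 and arrays left out 3 to 4. Against 1 in LGR5lo cells, a trended and robust variance gave 2, each slide alone 0, and arrays left out 1 to 2. Against 1 between the sorts after 12 Gy, the replicate block within each arm and the fit of only the compared groups gave 2, and each slide alone 0. Against 1 without irradiation, quantile normalization gave 2, the array median 0, each slide alone 0, and arrays left out 1 to 3, with 3 (E2f1, E2f2 and E2f3) without non-irradiated LGR5lo replicate 1 and 2 without replicate 2. The replicate block changed no other member call between the sorts. With the replicate number as a block across arms, which the numbers do not pair, Rbl1 was also called in LGR5hi cells (-0.63, adjusted p = 0.032). Slides 1 and 2 hold 2 arrays a group, fewer than the other fits. Slide 3 holds only non-irradiated LGR5lo replicate 5, so slides are not balanced in comparisons with that group.

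Over all gene names, the 3743 called in LGR5hi cells became 1242 with the array median, 2306 with normexp, 266 and 1573 on slides 1 and 2, and 5665 without non-irradiated LGR5lo replicates 2 and 4. The 2081 in LGR5lo cells became 990 with the array median, 788 with only the compared groups, 42 and 459 by slide, and 1181 to 2539 with arrays left out. The 11 for the difference of effects became 0 with the array median and on each slide, 2 with normexp or slide as a block, 19 with the replicate block within each arm, 18 with the trended variance and 0 to 26 with arrays left out. The 1753 after 12 Gy became 672 with the array median, 3114 with only the compared groups, 319 and 118 by slide, 3191 without both of those replicates and 1062 to 2869 with arrays left out. The 2651 without irradiation became 963 with the array median, 994 with normexp, 1157 with only the compared groups, 105 and 246 by slide, and 1446 to 4234 with arrays left out. The cause was not tested.

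The array median moved the median of all gene names to 0.40 in LGR5lo cells and 0.39 between the non-irradiated sorts, against -0.13 and -0.083, and of the difference of effects to -0.49, against 0.060. Relative to these shifts Rb1 was 1.27 both ways in LGR5lo cells, which holds by construction. The share of calls that were rises went to 64.8% from 45.9% in LGR5hi cells and to 92.5% from 59.7% in LGR5lo cells, and that of genes higher in LGR5hi cells after 12 Gy to 14.3% from 35.1%.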

Other observations

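Of 11 genes of the polycomb complex of E2f6, Cbx3 fell in LGR5hi cells (-0.78 ± 0.19, adjusted p = 0.0098 in limma), where 7.3% of all gene names fell, and none was called in LGR5lo cells. Of 12 co-repressors of the retinoblastoma protein, Sin3a fell in LGR5hi cells (-0.99 ± 0.19, adjusted p = 0.0022) and none was called in LGR5lo cells. Between the non-irradiated sorts, Mga (0.54 ± 0.14) and Cbx3 (0.66 ± 0.18) of the first list and the DNA methyltransferase gene Dnmt1 (0.79 ± 0.21) and Rbbp8 (0.49 ± 0.14) of the second were higher in LGR5hi than in LGR5lo cells, where 4.62% of all gene names were. Each of these 4 calls was lost with some single arrays left out, with adjusted p up to 0.068 for Mga, 0.073 for Cbx3, 0.102 for Dnmt1 and 0.095 for Rbbp8. The medians of the 2 lists, 0.35 and 0.37, stood beside -0.083 over all gene names.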
